A study of Homo sapiens with 12 samples.

Results

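The genes described here encode 4 MHC class I heavy chains (HLA-B, HLA-C, HLA-E and HLA-F), their light chain B2M and the class I coactivator NLRC5. They were taken by Ensembl identifier from a table of 60617 genes, and all 6 were present and passed the filter on low counts that left 18524 genes for testing. RNA-seq reads per gene were counted in 12 libraries of A549, a human lung adenocarcinoma cell line, in 4 groups of 3. YTHDF1 KO + siARID1A cells were knocked out for YTHDF1, a reader of N6-methyladenosine in RNA, and were given siRNA against ARID1A, a subunit of the SWI/SNF chromatin remodelling complex. By the labels, YTHDF1 KO cells carried the first change alone, siARID1A cells the second alone, and WT cells neither. The WT cells also differed from the other 3 groups in the level of chromosome 9 genes, as given below. The sample titles call the YTHDF1 change a knockdown and the genotype field calls it a knockout. The labels do not say whether the YTHDF1 KO cells are 1 clone, name no control siRNA for the WT and YTHDF1 KO cells, and give no siRNA dose or time. They call the replicates biological without saying that these were separate cultures, so the p-values measure only the spread between these libraries.

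Class I molecules carry peptides from inside the cell to its surface, where CD8+ T cells read them. The heavy chain holds the peptide and is stable only with B2M, the invariant light chain. HLA-B and HLA-C are the classical, highly variable chains, HLA-E presents leader peptides of other class I chains to receptors of natural killer cells, and HLA-F is a nonclassical chain that can reach the surface without peptide. NLRC5 has no DNA-binding domain of its own and acts on class I and B2M promoters through a complex of RFX, CREB/ATF and NF-Y factors, while interferon and NF-kB signals reach the same promoters through their own sites.

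The genes lie at 3 places on GRCh38 (GENCODE release 29). The heavy chain genes are in the MHC on chromosome 6. HLA-F (ENSG00000204642) is at chr6:29722775-29738528 and HLA-E (ENSG00000204592) at chr6:30489467-30494205, both on the plus strand. HLA-C (ENSG00000204525) is at chr6:31268749-31272130 and HLA-B (ENSG00000234745) at chr6:31269491-31357188, both on the minus strand, and the annotated span of HLA-B covers part of HLA-C, with 35 exon bases in common. B2M (ENSG00000166710) is at chr15:44711487-44718877 and NLRC5 (ENSG00000140853) at chr16:56989485-57083531, both on the plus strand. Opposite-strand genes overlap 17.8% of the exon bases of HLA-B (the pseudogene AL671883.2) and 12.3%, 16.1% and 5.9% of those of HLA-F (HLA-F-AS1, AL645939.1 and RPL23AP1). The library kit keeps strand, but the strand setting and the treatment of reads that match several places are not given in the sources used here. Class I heavy chain genes are also near-identical in parts and vary between people, so the split of reads among HLA-B, HLA-C, HLA-E, HLA-F and heavy chain genes not analysed here is uncertain.

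RefSeq promoter windows (GRCh38.p14, 250 bases before to 50 after the annotated start) were at hand for 4 of the 6 genes and are shown because HLA-B, HLA-C, HLA-F and B2M were all highest in the same group. The windows are chr6:31357130-31357429 (minus strand) for HLA-B, chr6:31272043-31272342 (minus strand) for HLA-C, chr6:29723184-29723483 (plus strand) for HLA-F and chr15:44711267-44711566 (plus strand) for B2M. The RefSeq start of HLA-F lies inside the GENCODE span given above. HLA-E and NLRC5 have no window here. Each runs 5′ to 3′ on the gene's strand, and capitals mark every match, on either strand, to the motifs listed after them.
HLA-B: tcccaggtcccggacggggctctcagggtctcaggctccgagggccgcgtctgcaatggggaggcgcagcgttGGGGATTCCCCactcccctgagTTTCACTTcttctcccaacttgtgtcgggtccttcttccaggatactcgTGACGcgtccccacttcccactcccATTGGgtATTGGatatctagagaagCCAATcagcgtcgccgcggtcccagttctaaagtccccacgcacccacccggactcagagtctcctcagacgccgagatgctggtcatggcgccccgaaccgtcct
HLA-C: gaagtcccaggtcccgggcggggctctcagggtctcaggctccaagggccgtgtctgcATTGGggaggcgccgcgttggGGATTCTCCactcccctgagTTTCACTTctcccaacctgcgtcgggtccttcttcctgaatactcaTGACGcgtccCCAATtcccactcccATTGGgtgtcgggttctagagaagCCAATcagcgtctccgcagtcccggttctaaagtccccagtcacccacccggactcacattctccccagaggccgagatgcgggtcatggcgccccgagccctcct
HLA-F: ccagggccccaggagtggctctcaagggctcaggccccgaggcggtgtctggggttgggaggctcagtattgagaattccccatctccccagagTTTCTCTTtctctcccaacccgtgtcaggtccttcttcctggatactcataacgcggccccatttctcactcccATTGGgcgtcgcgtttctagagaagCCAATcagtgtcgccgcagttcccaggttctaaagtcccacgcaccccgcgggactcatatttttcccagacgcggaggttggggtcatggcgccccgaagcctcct
B2M: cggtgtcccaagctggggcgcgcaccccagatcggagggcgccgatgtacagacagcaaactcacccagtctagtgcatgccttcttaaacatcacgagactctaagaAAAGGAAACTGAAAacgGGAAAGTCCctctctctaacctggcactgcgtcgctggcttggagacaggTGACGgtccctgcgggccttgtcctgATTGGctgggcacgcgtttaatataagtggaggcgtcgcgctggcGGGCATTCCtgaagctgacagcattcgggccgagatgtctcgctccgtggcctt

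The motifs were the interferon regulatory factor core AANNGAAA, the STAT site TTCNNNGAA (GAS), an NF-kB type site GGANTNNCC, the CREB/ATF site TGACG and the NF-Y box CCAAT, where N is any base. The interferon regulatory factor core was at 155, 151 and 156 bases before the start in HLA-B, HLA-C and HLA-F, and at 142 and 136 bases in B2M, where the 2 matches overlap. It occurs in 22.9% of 34943 promoter windows of the same length. The CREB/ATF site was 106 bases before the start in HLA-B, 105 in HLA-C and 75 in B2M, against 24.5% of all windows, and these letters are not in the HLA-F window. NF-kB type matches stood at 177 and 175 bases in HLA-B (overlapping), 171 in HLA-C and 125 and 4 in B2M, with none in the HLA-F window and 14.2% of all windows holding one. The NF-Y box had 3 matches in HLA-B, 4 in HLA-C, 2 in HLA-F and 1 in B2M, against at least one in 34.6% of all windows. The GAS letters were in none of the 4 windows and in 7.66% of all windows. Over the bases that aligned, the HLA-B and HLA-C windows were 90.9% identical and the HLA-F window was 82.4% and 82.3% identical to them. The B2M window was 59.3% to 62.4% identical to the other three. A match describes letters only, and no binding was measured.

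Library totals were 30220717 to 45042635 counts. Levels are given as CPM, counts scaled to library totals that were adjusted by the trimmed mean of M values (TMM), and YTHDF1, a targeted gene, checked the labels first: it averaged 30.9 ± 1.11 CPM in YTHDF1 KO + siARID1A cells, 24.9 ± 2.08 in YTHDF1 KO cells, 97.9 ± 4.69 in siARID1A cells and 88.2 ± 2.57 in WT cells (SD, n = 3 each). ARID1A averaged 54.2 ± 6.51, 161 ± 12, 42.5 ± 2.12 and 164 ± 14.1 CPM in the same order of groups. Both targets were thus lowered where the labels say so, to 28.2% (YTHDF1 KO) and 25.9% (siARID1A) of WT. WT replicate 2 stood apart, its mitochondrial genes holding 4.85% of counts where WT replicates 1 and 3 had 7.9% and 8.23%, and the 6 genes are also given without it. Of 5 epithelial markers, KRT8 averaged 1805 CPM in YTHDF1 KO + siARID1A cells, 1484 in YTHDF1 KO cells, 3619 in siARID1A cells and 4799 in WT cells. In the same groups KRT18 averaged 1127, 912, 2064 and 2287 CPM, CDH1 109, 41.6, 171 and 104 CPM, EPCAM 1.66, 0.785, 8.14 and 3.52 CPM and KRT19 0.0887, 0.0362, 1.02 and 0.0314 CPM. CDH1 and EPCAM were thus lowest in YTHDF1 KO cells and highest in siARID1A cells. The 14 leukocyte and endothelial markers summed to 4.76 to 5.13 CPM in YTHDF1 KO + siARID1A cells, 3.34 to 3.79 in YTHDF1 KO cells, 8.25 to 10.4 in siARID1A cells and 2.8 to 5.04 in WT cells. In each group, 4 to 7 of them had no counts, CD2 and CD3D had none in any library, and the most abundant was ITGAM (2.93, 2.34, 6.61 and 2.19 CPM in those groups). The part of these marker differences in the results below was not tested.

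With both YTHDF1 and ARID1A lowered, every one of the 6 genes rose over WT, by 2.77-fold for HLA-E to 19.8-fold for HLA-B, where 25.6% of all genes tested were higher. In YTHDF1 KO cells 4 of the 6 were higher than in WT, against 19.6% of all genes. In siARID1A cells 4 of the 6 were higher than in WT, against 22.1% of all genes. These folds were smaller than those with both changes. HLA-B had the largest fold change of the 6 in all 3 comparisons with WT, while B2M and HLA-E gave most of the class I RNA per length in every group. The YTHDF1 KO + siARID1A group was highest for each of the 6 genes and did not overlap any other group, which held for 7.01% of all genes tested. The 6 genes were chosen with earlier results of these data known, so counts beside such shares, here and below, describe the genes and do not test them as a set. In bulk RNA, more expressing cells and more RNA per cell cannot be told apart.

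**Figure D1:**
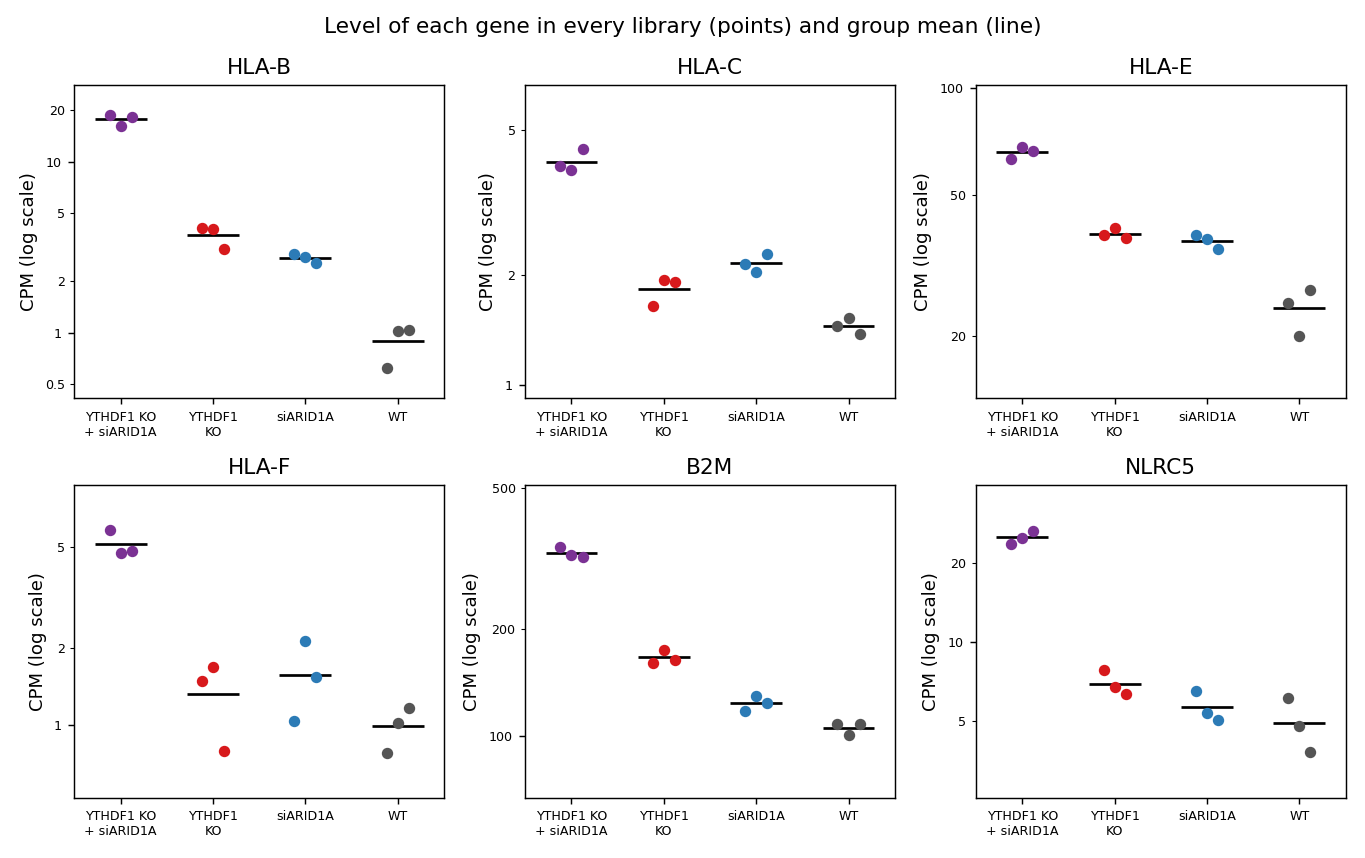
Level of the 6 genes in every library, in CPM on a log scale with its own range for each gene (points are libraries, lines are means of 3). The YTHDF1 KO + siARID1A points lie above all others in each panel, HLA-B for example at 16.2 to 18.7 CPM against 0.625 to 1.04 CPM in WT cells.

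HLA-B, a classical heavy chain, was measured at 18.7, 16.2 and 18.3 CPM in YTHDF1 KO + siARID1A cells, at 4.08, 4.04 and 3.09 CPM in YTHDF1 KO cells, at 2.87, 2.76 and 2.57 CPM in siARID1A cells and at 0.625, 1.02 and 1.04 CPM in WT cells. None of the 4 groups overlapped another. The WT values rest on 25 to 46 counts a library and those of YTHDF1 KO + siARID1A cells on 596 to 725. By edgeR's quasi-likelihood test with Benjamini-Hochberg adjustment over all genes tested, used for every adjusted p below, the log2 fold change over WT was 4.31 ± 0.23 in YTHDF1 KO + siARID1A cells (adjusted p = 8.86e-16), 2.07 ± 0.26 in YTHDF1 KO cells (adjusted p = 3.75e-09) and 1.62 ± 0.23 in siARID1A cells (adjusted p = 4.89e-07). The errors here and below are standard errors from the spread of log2 CPM between libraries, n = 3 a group, while the test uses the fitted dispersion, which weighs counting error in low genes. The order of the levels was YTHDF1 KO + siARID1A, YTHDF1 KO, siARID1A, WT. YTHDF1 KO cells exceeded siARID1A cells by 0.45 ± 0.14 (adjusted p = 0.0333), a call lost without YTHDF1 KO replicate 1 (adjusted p = 0.115) or 2 (0.112), without siARID1A replicate 2 (0.0598) or 3 (0.0991), or with only those 2 groups in the fit (0.0576).

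HLA-C, the other classical chain, was low throughout, with 3.98, 3.89 and 4.44 CPM in YTHDF1 KO + siARID1A cells, 1.65, 1.94 and 1.91 CPM in YTHDF1 KO cells, 2.15, 2.04 and 2.28 CPM in siARID1A cells and 1.45, 1.53 and 1.38 CPM in WT cells. Only the first group stood far from the rest. Its log2 fold change over WT was 1.49 ± 0.07 (adjusted p = 8.66e-07). In siARID1A cells the change was 0.56 ± 0.06 (adjusted p = 0.0302), and this call was lost without WT replicate 1 (adjusted p = 0.0612) or 3 (0.0691), without siARID1A replicate 1 (0.0619) or 3 (0.0887), with no filter on low counts (0.0922) and with only the 2 groups in the fit (0.0857). In YTHDF1 KO cells it was 0.33 ± 0.08 and did not pass (adjusted p = 0.222), although the libraries of the 2 groups did not overlap. Below YTHDF1 KO + siARID1A, the order was siARID1A, YTHDF1 KO, WT, and neither neighbouring pair passed the test (adjusted p = 0.379 and 0.222).

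HLA-E, which presents leader peptides, had 63.0, 68.0 and 66.4 CPM in YTHDF1 KO + siARID1A cells, 38.5, 40.2 and 37.6 CPM in YTHDF1 KO cells, 38.5, 37.4 and 35.2 CPM in siARID1A cells and 24.7, 20 and 26.9 CPM in WT cells. The groups with a single change overlapped each other and stood between the other two. On the log2 scale HLA-E rose over WT by 1.47 ± 0.13 with both changes (adjusted p = 8.71e-13), by 0.71 ± 0.13 in YTHDF1 KO cells (adjusted p = 5.66e-07) and by 0.64 ± 0.13 in siARID1A cells (adjusted p = 2.69e-06). YTHDF1 KO and siARID1A cells differed by 0.07 ± 0.05 (adjusted p = 0.587).

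HLA-F, the chain that can stay without peptide, had 5.84, 4.74 and 4.79 CPM in YTHDF1 KO + siARID1A cells, 1.49, 1.69 and 0.786 CPM in YTHDF1 KO cells, 1.03, 2.13 and 1.54 CPM in siARID1A cells and 0.775, 1.02 and 1.16 CPM in WT cells. The last 3 groups overlapped one another. HLA-F rose over WT by 2.38 ± 0.19 on the log2 scale with both changes (adjusted p = 1.05e-07). With YTHDF1 KO alone the difference was 0.44 ± 0.37 (adjusted p = 0.255) and with siARID1A alone 0.67 ± 0.34 (adjusted p = 0.0694), the second of which passed without siARID1A replicate 1 (0.90, adjusted p = 0.0222). In these groups it had 28 to 70 and 34 to 68 counts a library, against 31 to 46 in WT cells, and the spread between libraries was wide (coefficient of variation 36.0%, 35.3% and 19.9%). Below YTHDF1 KO + siARID1A the order was siARID1A, YTHDF1 KO, WT, and neither neighbouring pair passed the test (adjusted p = 0.556 and 0.255).

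B2M, the light chain of all class I molecules, had 341, 325 and 319.7 CPM in YTHDF1 KO + siARID1A cells, 161, 175 and 164 CPM in YTHDF1 KO cells, 118, 129.5 and 124 CPM in siARID1A cells and 108, 100.5 and 108 CPM in WT cells. No group overlapped another, in the same order as for HLA-B. The log2 fold change over WT was 1.64 ± 0.04 with both changes (adjusted p = 3.4e-16), 0.66 ± 0.05 with YTHDF1 KO (adjusted p = 1.12e-08) and 0.23 ± 0.05 with siARID1A (adjusted p = 0.00604). YTHDF1 KO cells exceeded siARID1A cells by 0.43 ± 0.05 (adjusted p = 8e-06), the only such difference among the 6 genes that held without each library in turn.

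NLRC5, the coactivator, had 23.6, 25.0 and 26.5 CPM in YTHDF1 KO + siARID1A cells, 7.8, 6.73 and 6.32 CPM in YTHDF1 KO cells, 6.5, 5.39 and 5.06 CPM in siARID1A cells and 6.12, 4.8 and 3.83 CPM in WT cells. The libraries with both changes stood far above the other 9, which spread over 3.83 to 7.8 CPM. NLRC5 rose over WT by 2.34 ± 0.20 on the log2 scale with both changes (adjusted p = 9.95e-13). With YTHDF1 KO it rose by 0.49 ± 0.21 (adjusted p = 0.00988), a call lost without WT replicate 3 (0.35, adjusted p = 0.0638) or YTHDF1 KO replicate 1 (0.40, adjusted p = 0.0654). With siARID1A the difference was 0.19 ± 0.22 (adjusted p = 0.327), and the 2 groups overlapped. YTHDF1 KO and siARID1A cells also overlapped, with a difference of 0.30 ± 0.14 (adjusted p = 0.107).

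**Figure D2:**
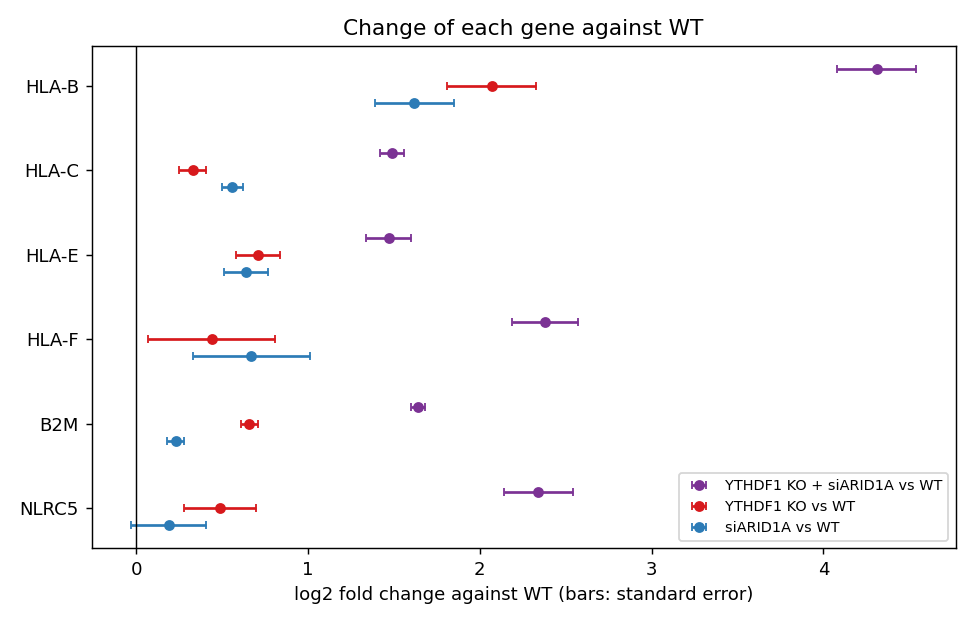
Log2 fold change of each gene over WT in the 3 other groups (points, with standard errors from 3 libraries a group). The YTHDF1 KO + siARID1A points are furthest right for every gene, from 1.47 for HLA-E to 4.31 for HLA-B, and the siARID1A points for B2M and NLRC5 lie nearest to 0 (0.23 and 0.19).

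Counted over the 6 genes, YTHDF1 KO + siARID1A cells had 6 higher and 0 lower than WT, where 25.6% of all genes tested were higher and 25.9% lower. YTHDF1 KO cells had 4 higher (HLA-B, HLA-E, B2M and NLRC5) and 0 lower than WT, against 19.6% higher and 20.8% lower of all genes. siARID1A cells had 4 higher (HLA-B, HLA-C, HLA-E and B2M) and 0 lower than WT, against 22.1% higher and 23.0% lower. The median log2 fold change of the 6 genes was 1.99, 0.57 and 0.60 in these comparisons, and that of all genes tested was −0.01 in each. These comparisons share the WT libraries. Without WT replicate 2 no call changed for any of the 6 genes, and the log2 fold change of HLA-B was 4.45, 2.21 and 1.76. Genes of chromosome 9 were shifted as a block in every comparison with WT. Their medians were −0.38 in YTHDF1 KO + siARID1A cells, −0.36 in YTHDF1 KO cells and −0.41 in siARID1A cells, and 0.39 in the interaction. YTHDF1 KO + siARID1A cells stood at 0.01 over YTHDF1 KO and 0.02 over siARID1A cells, and YTHDF1 KO at 0.04 over siARID1A cells. The WT cells thus stood apart from the other 3 groups in this block. Its part in the comparisons with WT was not tested. Chromosome 2 was shifted in YTHDF1 KO + siARID1A cells (−0.42) and YTHDF1 KO cells (−0.41) and stood at 0.01 in siARID1A cells. The medians of chromosomes 6, 15 and 16, where the 6 genes lie, were 0.06, 0.04 and −0.09 in YTHDF1 KO + siARID1A cells, 0.02, 0.02 and −0.02 in YTHDF1 KO cells and 0.01, 0.0 and −0.1 in siARID1A cells.

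Adding siARID1A to YTHDF1 KO cells raised all 6 genes. The log2 fold change of YTHDF1 KO + siARID1A over YTHDF1 KO cells was 2.24 ± 0.14 for HLA-B (adjusted p = 9.35e-11), 1.94 ± 0.34 for HLA-F (adjusted p = 7.57e-06), 1.85 ± 0.10 for NLRC5 (adjusted p = 4.37e-10), 1.16 ± 0.09 for HLA-C (adjusted p = 9.17e-05), 0.98 ± 0.04 for B2M (adjusted p = 5.01e-11) and 0.76 ± 0.04 for HLA-E (adjusted p = 4.46e-07). Here 6 were higher and 0 lower, against 12.5% higher and 10.9% lower of all genes. YTHDF1 KO on top of siARID1A raised all 6 as well. YTHDF1 KO + siARID1A cells exceeded siARID1A cells by 2.69 ± 0.08 for HLA-B, 2.15 ± 0.12 for NLRC5, 1.71 ± 0.31 for HLA-F, 1.41 ± 0.05 for B2M, 0.93 ± 0.07 for HLA-C and 0.83 ± 0.05 for HLA-E, with adjusted p of at most 0.000501. All genes tested were 18.2% higher and 17.2% lower in that comparison. YTHDF1 KO set against siARID1A cells had 2 higher (HLA-B and B2M) and 0 lower, against 22.4% higher and 22.8% lower of all genes.

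The interaction tested was the log2 change with siARID1A in YTHDF1 KO cells minus that in WT cells. The siARID1A and WT cells also differed in chromosome 9 (median −0.41), whose median in the interaction was 0.39. ARID1A was higher in YTHDF1 KO + siARID1A than in siARID1A cells (54.2 and 42.5 CPM, adjusted p = 0.00214), with an interaction of 0.38 (adjusted p = 0.0278). The part of these differences in the values below was not tested. The interaction was positive and passed the test for NLRC5 (1.66 ± 0.24, adjusted p = 2.67e-06), B2M (0.75 ± 0.07, adjusted p = 2.67e-06) and HLA-F (1.26 ± 0.48, adjusted p = 0.0304). So 3 of the 6 were higher and 0 lower, against 8.87% higher and 8.22% lower of all genes. For NLRC5 the combined fold over WT was 5.07, where the product of the single folds was 1.61. For B2M these were 3.11 and 1.85, and for HLA-F 5.21 and 2.17. The HLA-F call was lost without WT replicate 3 (1.14, adjusted p = 0.0716), YTHDF1 KO + siARID1A replicate 1 (1.17, adjusted p = 0.075), YTHDF1 KO replicate 3 (1.01, adjusted p = 0.0926), siARID1A replicate 1 (1.04, adjusted p = 0.0884) or siARID1A replicate 3 (1.25, adjusted p = 0.0541). The calls for NLRC5 and B2M held without each library in turn.

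The interaction did not pass for HLA-B (0.62 ± 0.27, adjusted p = 0.106), HLA-C (0.60 ± 0.11, adjusted p = 0.166) or HLA-E (0.12 ± 0.14, adjusted p = 0.575). HLA-E was closest to the product of the single folds, 2.77 against 2.54. HLA-B stood at 19.8 against 12.9 and passed without WT replicate 1 (0.83, adjusted p = 0.0282), the WT library with the lowest HLA-B. HLA-C stood at 2.82 against 1.86. A difference that misses the threshold does not show that the changes multiply.

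**Figure D3:**
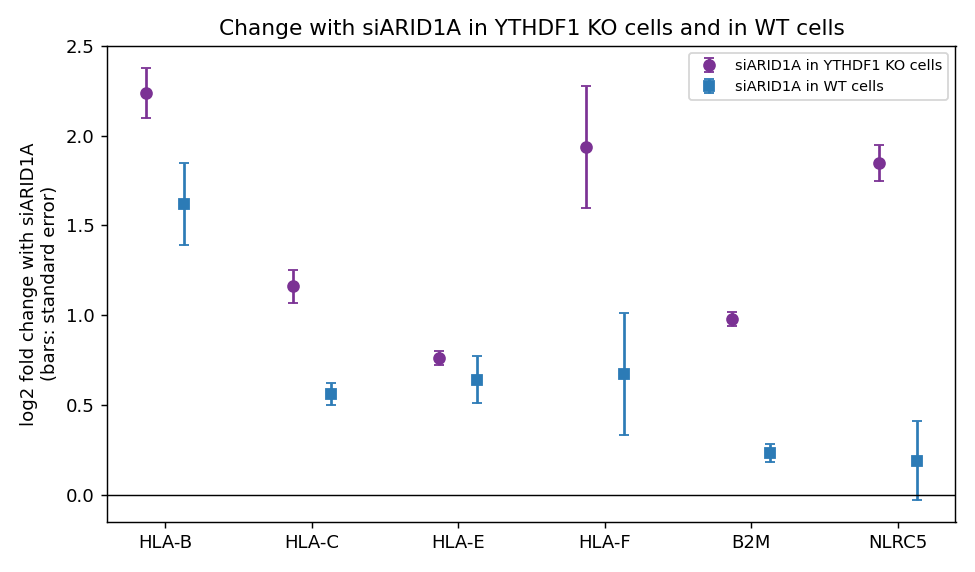
Log2 fold change with siARID1A in YTHDF1 KO cells (circles) and in WT cells (squares), with standard errors. The circles lie above the squares for all 6 genes, furthest for NLRC5 (1.85 and 0.19) and least for HLA-E (0.76 and 0.64), and the difference passed the test for HLA-F, B2M and NLRC5.

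Levels of different genes were compared per kb of exon, counting every base in any annotated exon of a gene. That length was 6079 bases for B2M, 12386 for NLRC5, 4342 for HLA-F, 3051 for HLA-B, 2975 for HLA-E and 2507 for HLA-C. It can exceed the length of the transcripts made, by an amount that differs between genes, so ranks and shares between genes are approximate. B2M had 54.0 CPM per kb in YTHDF1 KO + siARID1A cells, 27.4 in YTHDF1 KO cells, 20.4 in siARID1A cells and 17.4 in WT cells. HLA-E came next, with 22.1, 13, 12.5 and 8.02 CPM per kb in the same groups. HLA-B had 5.81, 1.23, 0.896 and 0.293 CPM per kb, NLRC5 2.02, 0.561, 0.456 and 0.397, HLA-C 1.64, 0.731, 0.859 and 0.579, and HLA-F 1.18, 0.305, 0.36 and 0.227. By this measure HLA-B ranked the third of the 6 in YTHDF1 KO + siARID1A cells and the fifth in WT cells. Of the 4 chains per length, HLA-E made up 71.9 ± 2.09% in YTHDF1 KO + siARID1A cells, 85.3 ± 1.18% in YTHDF1 KO cells, 85.5 ± 0.835% in siARID1A cells and 87.8 ± 2.37% in WT cells (SD, n = 3 each). HLA-B made up 18.9 ± 1.54%, 7.99 ± 0.946%, 6.15 ± 0.121% and 3.26 ± 1.01%. The shares of HLA-C (5.32%, 4.78%, 5.91% and 6.45%) and HLA-F (3.84%, 1.98%, 2.48% and 2.51%) were small in all groups.

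Each heavy chain pairs with 1 light chain, so the summed counts of the 4 chains were set against B2M in each library, a ratio that does not depend on the scaling. It was 26.9, 28.6 and 29.4 heavy chain counts per 100 B2M counts in YTHDF1 KO + siARID1A cells, 28.4, 27.4 and 26.4 in YTHDF1 KO cells, 37.6, 34.2 and 33.7 in siARID1A cells and 25.5, 23.4 and 28.1 in WT cells. The siARID1A libraries lay above the other 9, which spread over 23.4 to 29.4. By an exact permutation test over libraries (two-sided, smallest p possible 0.1), siARID1A cells exceeded WT cells by 0.46 ± 0.09 on the log2 scale (p = 0.1, adjusted over 6 comparisons 0.2). YTHDF1 KO + siARID1A cells were below siARID1A cells (−0.32 ± 0.06, exact p = 0.1) and above WT cells by 0.14 ± 0.09 (exact p = 0.2), and YTHDF1 KO cells were above WT cells by 0.10 ± 0.08 (exact p = 0.3). With 3 libraries against 3, none could pass 0.05.

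**Figure D4:**
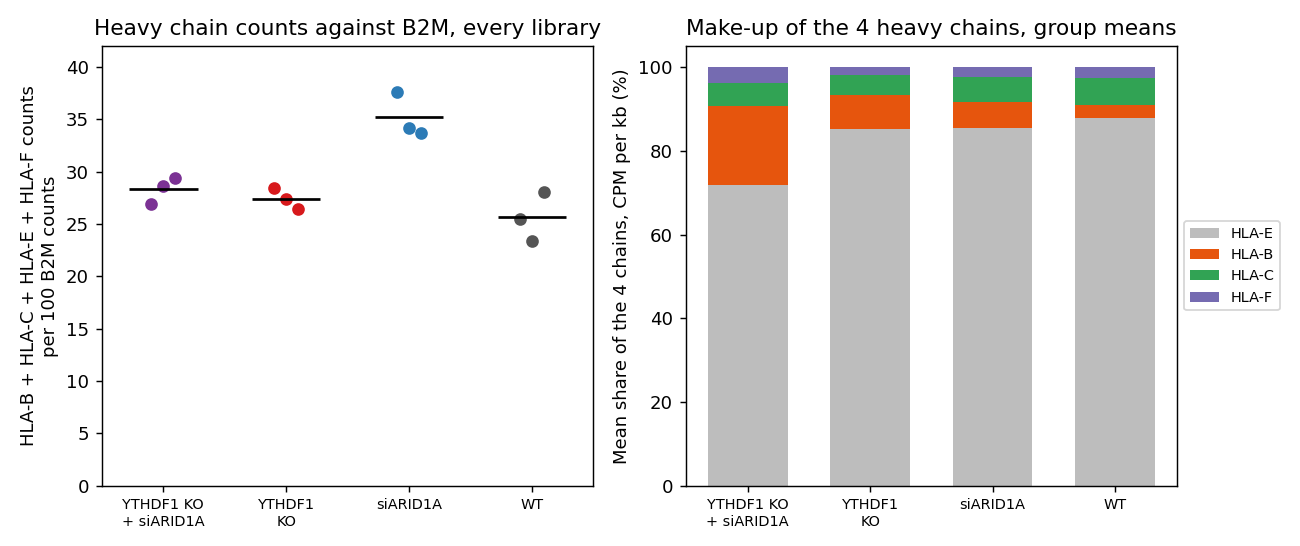
Left, summed HLA-B, HLA-C, HLA-E and HLA-F counts per 100 B2M counts in every library (points) with group means (lines). Right, mean share of each chain among the 4, in CPM per kb. The siARID1A libraries are highest on the left (33.7 to 37.6), and HLA-B takes its largest share on the right in YTHDF1 KO + siARID1A cells (18.9%, against 3.26% in WT cells).

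All 14 listed genes of peptide production, transport and loading were tested. In YTHDF1 KO + siARID1A cells over WT 10 rose and 2 fell (median log2 fold change 0.76), beside 25.6% higher and 25.9% lower of all genes. In YTHDF1 KO cells 8 rose and 0 fell (0.34), beside 19.6% and 20.8%, and in siARID1A cells 9 rose and 2 fell (0.46), beside 22.1% and 23.0%. TAP1, a subunit of the peptide transporter, averaged 81.8 ± 3.68 CPM in YTHDF1 KO + siARID1A cells, 47.7 ± 0.432 in YTHDF1 KO cells, 56.6 ± 4.17 in siARID1A cells and 29.1 ± 1.31 in WT cells, with log2 fold changes over WT of 1.49, 0.72 and 0.96 (adjusted p = 1.57e-14, 2.05e-08 and 1.79e-10). PSMB9 and PSMB8, catalytic subunits of the immunoproteasome, rose by 2.14 and 2.05 with both changes, by 1.33 and 1.04 with YTHDF1 KO and by 1.88 and 1.55 with siARID1A. The chaperones PDIA3 and CALR, which help load peptide, fell by 0.49 and 0.48 with both changes and by 0.93 and 0.88 with siARID1A, and were at −0.14 each in YTHDF1 KO cells, which did not pass. In the interaction, PSMB9 (−1.06, adjusted p = 0.000235), PSMB8 (−0.53, adjusted p = 0.029) and the peptide trimming enzyme ERAP1 (−0.34, adjusted p = 0.0445) were lower, the opposite sign to B2M, HLA-F and NLRC5, while PDIA3 (0.59) and CALR (0.54) were higher.

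Of 18 listed transcriptional regulators of class I genes, 17 were tested (IRF9 was too low). Over WT, 8 rose and 2 fell in YTHDF1 KO + siARID1A cells (median log2 fold change 0.11), beside 25.6% higher and 25.9% lower of all genes, and 7 rose and 2 fell in YTHDF1 KO cells (0.12), beside 19.6% and 20.8%. In siARID1A cells 3 rose and 4 fell (−0.03), shares near the 22.1% and 23.0% of all genes. IRF1, which binds the interferon site of class I promoters, averaged 23.8 ± 1.24 CPM in YTHDF1 KO + siARID1A cells, 12.1 ± 0.713 in YTHDF1 KO cells, 12.9 ± 1.88 in siARID1A cells and 7.3 ± 1.48 in WT cells. STAT2, a subunit of the factor activated by type I interferon, averaged 63.8 ± 4.7, 27.7 ± 0.967, 32.5 ± 1.62 and 22.2 ± 0.805 CPM in those groups. Both rose in each comparison with WT, IRF1 by 1.71, 0.73 and 0.82 and STAT2 by 1.53, 0.32 and 0.55, and the interaction passed for STAT2 (0.65 ± 0.09, adjusted p = 0.000188). IRF2 rose with siARID1A (0.61) and with both changes (0.67).

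The RFX, CREB/ATF and NF-Y factors with which NLRC5 acts are all 8 given here, some of them outside the naming rule. Of the RFX subunits, RFXANK rose by 0.42 with both changes and by 0.33 with YTHDF1 KO and was at 0.06 with siARID1A, which did not pass. RFX5 (−0.11, 0.01 and −0.04 with both changes, YTHDF1 KO and siARID1A) and RFXAP (−0.23, −0.35 and −0.06) passed in none of these comparisons. CREB1, which lies on chromosome 2 (median −0.42 with both changes and −0.41 with YTHDF1 KO), fell by 0.79, 0.44 and 0.40 in the same comparisons. ATF1 rose by 0.28 and 0.35 with both changes and YTHDF1 KO and was at −0.21 with siARID1A, which did not pass. Of the NF-Y subunits, NFYB rose by 0.60 with both changes and by 0.51 with YTHDF1 KO, and fell by 0.46 with siARID1A. NFYA fell by 0.40 with siARID1A and NFYC rose by 0.22 with YTHDF1 KO, and neither passed in the other comparisons with WT. The polycomb methyltransferase EZH2, which can silence class I genes, fell by 0.44, 0.38 and 0.77 with both changes, YTHDF1 KO and siARID1A. Its interaction was positive (0.72 ± 0.12, adjusted p = 7.77e-05), as was that of NFYB (0.55 ± 0.13, adjusted p = 0.00197). The polycomb genes SUZ12 and EED, also listed, did not follow EZH2. SUZ12 rose by 0.32 with both changes and by 0.26 with YTHDF1 KO, and its −0.03 with siARID1A did not pass. EED (−0.01, −0.03 and 0.09 with both changes, YTHDF1 KO and siARID1A) passed in none of these comparisons.

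**Figure D5:**
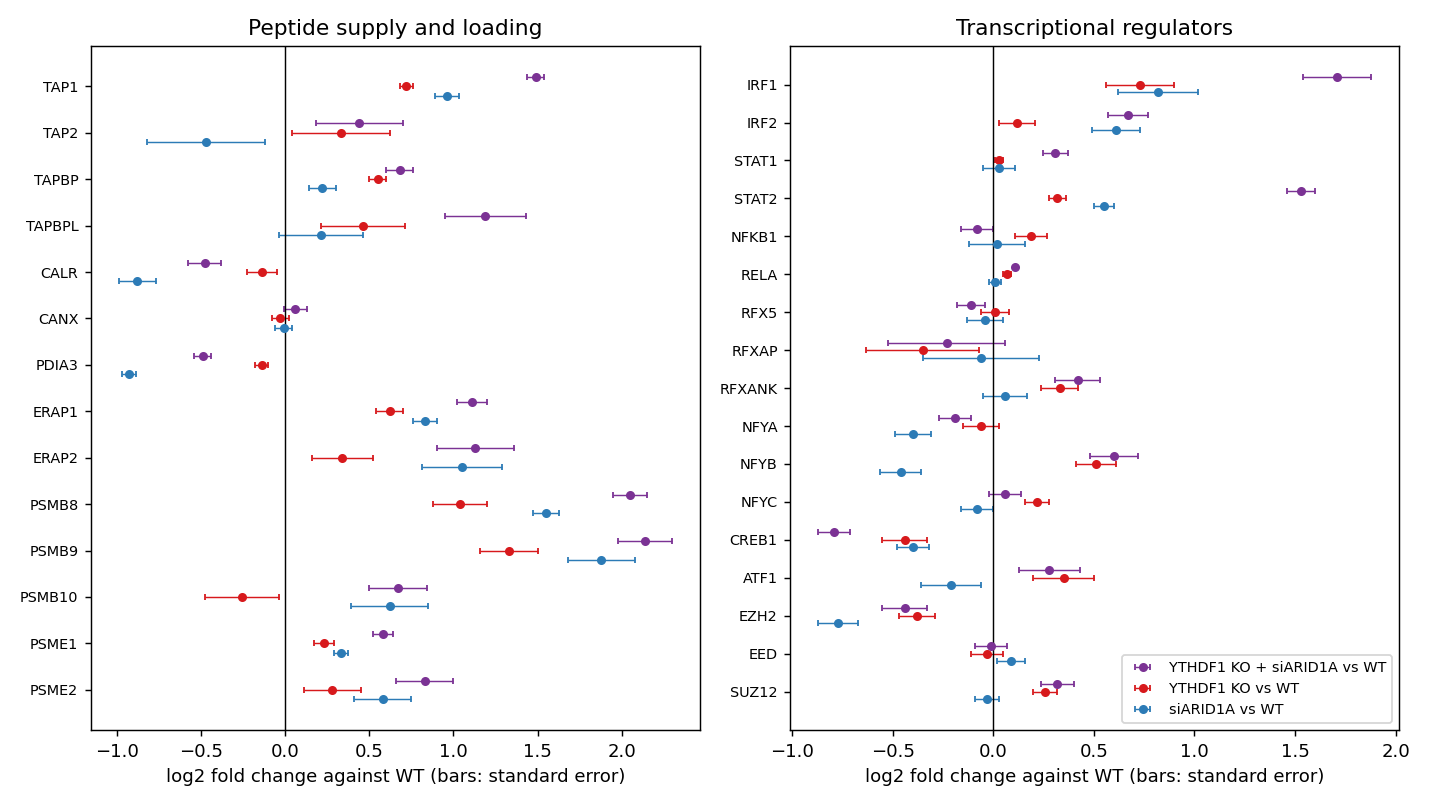
Log2 fold change over WT, with standard errors, of the 14 listed peptide supply genes (left) and the 17 tested transcriptional regulators (right) in the 3 other groups. PSMB8, PSMB9 and TAP1 on the left and IRF1 and STAT2 on the right lie furthest to the right in YTHDF1 KO + siARID1A cells (2.05, 2.14, 1.49, 1.71 and 1.53), and PDIA3 and CALR lie left of 0 in siARID1A cells.

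Likeness of pattern was measured as the root mean square difference in log2 CPM over the 12 libraries, each gene centred on its own mean, among 13883 genes of at least 1 CPM. Among the 6 genes, HLA-C and HLA-E were most alike (0.21), B2M and HLA-E next to them at 0.23, and HLA-B and HLA-C least alike (1.04), since this measure keeps the size of a change. Outside them, the 3 nearest genes to NLRC5 were PLSCR1 (0.31), USP18 (0.32) and CTSL (0.35), and those to HLA-F were USP18 (0.36), CEMIP (0.43) and CTSL (0.45). The nearest to HLA-B were NR4A2 (0.35), SAMD9L (0.38) and IRF7 (0.39), and to B2M NNMT (0.13), VEGFC (0.14) and IFIT5 (0.16). HLA-C was nearest to STAT2 (0.10), FOXC1 (0.10) and PLCG2 (0.12), and HLA-E to CNNM2 (0.09), GSDMD (0.13) and CHMP1B (0.13). Genes with small changes have small differences, so these values do not compare between genes of different range.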

How the data were processed

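Total RNA of A549 cells was made into strand-keeping libraries, per the labels' protocols. The deposited values are raw counts per Ensembl gene in 1 table of 12 columns. Trim Galore 0.6.6, STAR 2.7.0d, featureCounts 2.0.1, edgeR 3.32.1 and the build GRCh38 are named in the submitters' processing notes, without parameters. Strand setting, multi-mapping and annotation release are not given in the sources used here. Symbols, positions and exon lengths came from GENCODE release 29.

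Counts were fitted with edgeR 4.0.16 in R 4.3.3 (TMM, filterByExpr, robust quasi-likelihood) over all 12 libraries with 1 coefficient per group. P-values were two-sided and Benjamini-Hochberg adjusted over 18524 genes with a threshold of 0.05. The biological coefficient of variation was 9.44%, and the scripts were tested on simulated data. CPM use TMM-scaled totals, and log2 CPM for standard errors and likeness use a prior count of 2. DESeq2 1.42.0 and other settings were alternatives.

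The 6 genes and the gene lists were chosen with earlier results of these data known. Named list genes were those with the 3 smallest p in a comparison, and any covered by a count of 5 or fewer. MICA, EED, SUZ12 and some of the factors with which NLRC5 acts were named outside this rule.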

Additional observations from a re-analysis of the deposited data

Results flagged for a closer look

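The change with siARID1A differed between YTHDF1 KO cells and WT cells for 3 of the 6 genes, by the interaction term of edgeR's quasi-likelihood fit. The shift of chromosome 9 and the unequal lowering of ARID1A given above apply here too. NLRC5 differed by 1.66 on the log2 scale (adjusted p = 2.67e-06), with changes of 1.85 in YTHDF1 KO cells and 0.19 in WT cells. B2M differed by 0.75 (adjusted p = 2.67e-06), with changes of 0.98 and 0.23. HLA-F differed by 1.26 (adjusted p = 0.0304), with changes of 1.94 and 0.67, and this call was lost when single libraries were left out, as given above. Groups of 3 libraries are too small for the test of single libraries that stand apart.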

How the results depend on the processing

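Over 21 alternative settings, 876 values of the 6 genes were recomputed, of which 854 kept their direction and side of the threshold, 18 lost a call, 2 gained one and 2 reversed. The lost and gained calls stand beside their values above, and the cause was not tested. The number of genes higher in YTHDF1 KO than in siARID1A cells was 1 with only those groups in the fit, and 1 to 2 when single libraries were left out, where HLA-B missed the threshold. HLA-F, which did not pass in that comparison, reversed to 0.033 without YTHDF1 KO replicate 3 and 0.058 without siARID1A replicate 2, with a range of −0.456 to 0.058 over the libraries left out. Same-numbered libraries did not deviate together (18 correlations of −0.042 to 0.033), so no pairing by number was detected. The labels do not say whether these libraries were handled together, and the correlations cannot exclude it. A fit with the replicate block changed no call of the 6 genes and gave a log2 fold change of 4.31 for HLA-B in YTHDF1 KO + siARID1A cells over WT, and 7284 genes called in YTHDF1 KO cells over WT. The summed chain ratio kept its direction in all 6 comparisons without each library, though with groups this small its test could not pass. Counts were lowest for HLA-B in WT cells (25 to 46 a library) and for HLA-C and HLA-F outside YTHDF1 KO + siARID1A cells (28 to 80).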

Other observations

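Of 14 listed class I-like molecules and ligands of the natural killer receptor NKG2D, 12 were tested. In YTHDF1 KO + siARID1A cells over WT 7 rose and 2 fell (median log2 fold change 0.51), beside 25.6% higher and 25.9% lower of all genes. In YTHDF1 KO cells 6 rose and 2 fell (0.19), beside 19.6% and 20.8%, and in siARID1A cells 4 rose and 4 fell (−0.05), beside 22.1% and 23.0%. FCGRT, the heavy chain of the neonatal Fc receptor and a B2M partner, averaged 41.9 ± 1.45 CPM in YTHDF1 KO + siARID1A cells, 28.9 ± 1.73 in YTHDF1 KO cells, 30.0 ± 2.82 in siARID1A cells and 13.9 ± 1.27 in WT cells (SD, n = 3 each). It rose over WT by 1.59, 1.06 and 1.11 on the log2 scale (edgeR's quasi-likelihood, adjusted p = 4.45e-13, 1.33e-09 and 9.2e-10), and its interaction was negative (−0.57, adjusted p = 0.00265), where that of B2M was positive. PROCR, the endothelial protein C receptor, rose by 1.14, 0.79 and 0.74. MR1, which presents microbial metabolites with B2M, rose by 1.07 with siARID1A and 0.69 with both changes. The NKG2D ligand MICB rose by 1.13, 0.59 and 1.16 with both changes, YTHDF1 KO and siARID1A. RAET1G and RAET1E, also NKG2D ligands, fell by 2.58 and 2.77 with both changes, by 2.37 and 2.77 with YTHDF1 KO and by 1.48 and 1.46 with siARID1A. ULBP1 and ULBP3 fell by 1.4 and 1.01 with siARID1A. The NKG2D ligand RAET1L went the other way, rising by 4.6 with both changes and by 3.57 with YTHDF1 KO. With siARID1A it was at −0.78, which did not pass, and its WT level rested on 19 summed counts. MICA rose by 0.82 with both changes and by 0.79 with YTHDF1 KO, and its 0.40 with siARID1A did not pass.

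Of 14 other class I locus genes and pseudogenes, 13 were in the table and 2 were tested. The pseudogene HLA-H averaged 1.38 ± 0.121 CPM in YTHDF1 KO + siARID1A cells, 0.642 ± 0.0808 in YTHDF1 KO cells, 1.71 ± 0.145 in siARID1A cells and 0.973 ± 0.177 in WT cells. It rose with siARID1A over WT (0.81, edgeR adjusted p = 0.0212). Its lowest mean was in YTHDF1 KO cells, but the difference from WT did not pass (−0.59, edgeR adjusted p = 0.122, on 74 and 113 summed counts). HLA-B, HLA-C, HLA-E and HLA-F had their lowest means in WT cells, though HLA-C and HLA-F did not pass in YTHDF1 KO cells over WT. HLA-L did not pass in any comparison, and HLA-G had 0 to 4 counts a group.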
